A study of Mus musculus with 18 samples.

Results

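Collagen genes encode the chains of the collagens, extracellular proteins built from 3 chains wound into a triple helix. They were taken here as every gene whose single symbol in the platform annotation has the form Col, a number, a, a number. This gave 47 probe sets for 44 genes out of 22180 genes with a single symbol, and where a gene had several, the brightest on average in the tissue stood for it. By class, 11 encode fibrillar chains, 6 encode the type IV chains of basement membranes, and 27 encode other collagens.

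The 18 arrays come from C57BL/6 mice that were germ-free until they received gut microbiota at 5 to 6 weeks of age. OMT recipients were given microbiota of donors about 24 months old, and YMT recipients that of young donors, whose age the labels give as 4 weeks in one place and as 5 to 6 weeks in another. All recipients, OMT and YMT alike, were sampled 8 weeks after the transfer, at 12 or 13 weeks of age by the labels, and recipients without a transfer were not analysed here. Small intestine and liver each have 5 OMT arrays and 4 YMT arrays, 1 per biological replicate. How many donors or cages stood behind each group was not used here, so a shared donor or cage cannot be told apart from donor age. The question put to the collagen genes was whether their levels in liver and small intestine differed with the age of the microbiota donor.

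Fibrillar collagens, types I, III and V among them, assemble into the tensile fibres of connective tissue, and fibril-associated collagens such as type XIV sit on the surface of those fibres. Type IV collagen forms the sheet-like network of basement membranes, while types XV and XVIII, the multiplexins, carry sugar chains and lie beside basement membranes. In the liver, fibrillar collagen is made mainly by hepatic stellate cells and portal fibroblasts, type IV collagen by stellate and endothelial cells, and type XVIII collagen largely by hepatocytes. In the small intestine, fibroblasts and smooth muscle cells of the wall are the main sources. Chains that build 1 molecule together often have neighbouring genes: the genes of the 2 main type IV chains, Col4a1 and Col4a2, lie head to head and are read in opposite directions from a shared stretch.

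Promoter sequences in RefSeq (GRCm38.p6), 250 bases before to 50 bases after a start site, were found for 35 of the 44 genes, in 38 windows. The stretches below are shown because the genes behind them were lower in the OMT liver. Of the lower genes, 6 had a window, and Col1a1 and Col14a1 had none. The window of Col15a1 held none of the motifs marked below and is not shown. The stretch between the start sites of Col4a1 and Col4a2 is 22 bases long, ends included (chr8:11312805-11312826, plus strand), and capitals mark a GC box, which binds factors of the Sp family. By these start sites each gene is read toward the start of the other. The stretch and its GC box thus lie after both starts and not upstream of them.
Col4a1 and Col4a2: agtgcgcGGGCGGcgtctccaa
The start sites lie 21 bases apart and the 300-base windows of the 2 genes share 78 bases. In the 250 bases before the starts of Col1a2 (chr6:4505368-4505617, plus strand) and Col3a1 (chr1:45311288-45311537, plus strand), capitals mark GC boxes, CCAAT boxes and TATA boxes on either strand.
Col1a2: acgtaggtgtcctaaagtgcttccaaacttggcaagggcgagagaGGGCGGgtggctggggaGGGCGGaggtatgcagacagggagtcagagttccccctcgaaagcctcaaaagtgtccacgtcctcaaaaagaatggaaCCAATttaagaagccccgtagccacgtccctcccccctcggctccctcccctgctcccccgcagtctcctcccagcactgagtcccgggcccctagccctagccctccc
Col3a1: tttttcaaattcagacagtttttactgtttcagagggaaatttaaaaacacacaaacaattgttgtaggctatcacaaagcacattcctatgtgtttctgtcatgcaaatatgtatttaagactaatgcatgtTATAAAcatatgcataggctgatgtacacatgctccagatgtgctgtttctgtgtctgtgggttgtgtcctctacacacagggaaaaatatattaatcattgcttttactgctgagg
The stretch of Col1a2 holds 2 GC boxes and 1 CCAAT box, and that of Col3a1 holds neither but has a TATA box once. Col18a1 has 2 start sites, shown with the same capitals (chr10:77166531-77166780 and chr10:77113706-77113955, both minus strand, upstream site first), and the array level does not separate transcripts from the 2.
Col18a1 upstream: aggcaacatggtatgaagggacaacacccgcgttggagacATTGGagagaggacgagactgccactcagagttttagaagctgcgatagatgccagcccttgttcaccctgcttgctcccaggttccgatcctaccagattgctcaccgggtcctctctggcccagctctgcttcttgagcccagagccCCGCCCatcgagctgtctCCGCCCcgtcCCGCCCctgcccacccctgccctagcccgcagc
Col18a1 downstream: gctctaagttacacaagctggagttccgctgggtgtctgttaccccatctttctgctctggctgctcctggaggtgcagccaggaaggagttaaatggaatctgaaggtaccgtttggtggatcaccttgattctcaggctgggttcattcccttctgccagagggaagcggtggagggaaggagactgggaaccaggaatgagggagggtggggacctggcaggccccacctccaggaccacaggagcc
The GC box was searched as the letters GGGCGG on both strands of the 300-base windows, and was found in 60.5% of the 38 collagen windows and in 35.7% of all 32851 RefSeq windows. The CCAAT box, searched by those 5 letters, was found in 34.2% and 37.4% of the same windows. The TATA box, searched as TATAAA, was found in 13.2% and 13.6%. The 3 motifs share no letters in the stretches shown, and a match describes letters and not a used site.

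In the liver, 8 collagen genes fell in OMT recipients and none rose. They were the fibrillar chains Col1a1, Col1a2 and Col3a1, the type IV chains Col4a1 and Col4a2, the fibril-associated Col14a1 and the multiplexins Col15a1 and Col18a1. The differences ran from 3.06-fold for Col14a1 to 1.18-fold for Col18a1. In the small intestine none of the collagen genes tested passed the threshold in either direction. All values are log2 array levels on the deposited scale, a difference is OMT minus YMT with its standard error (SE), and adjusted p-values come from limma with Benjamini-Hochberg adjustment over all genes tested in the tissue, with calls made under 0.05.

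In the liver, 36 of the 44 members passed a filter on low values, under which 4 or more of the 9 arrays had to exceed their own median, and no member passed through 1 group alone. The 8 lower genes among these 36 compare with 8.78% lower among the 13380 genes tested, and the count of 0 higher with 10.4%, 19.2% in either direction together. The median difference over the 36 was -0.08, against -0.005 over all genes, and 26 of the 36 were below 0, against 51.0% of all genes. An unadjusted p under 0.05 was reached by 11 of the 36, against 32.4% of all genes. With no filter, all 44 members entered, 6 of them fell and 0 rose, against 4.39% and 5.08% of all genes, and 33 were below 0. The 6 were the genes named above other than Col15a1 and Col18a1.

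OMT livers 1 and 2 stood apart from the other OMT livers for the lipid desaturase gene Scd1 (9.21 and 9.40 against 5.63 to 6.61), so the collagen calls were also made without them. Then 5 genes fell, against 7.36% of all genes: Col14a1, Col1a1, Col1a2, Col3a1 and Col4a1. All 8 kept their direction.

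Col3a1 encodes the single chain of type III collagen, which forms the reticular fibres of the liver. Its levels (probe set 17212461) were 6.18, 5.71, 5.49 and 5.84 in the YMT livers and 5.26, 4.79, 4.58, 4.85 and 4.82 in the OMT livers. Every OMT liver lay below every YMT liver, with OMT liver 1 the closest to the YMT range. The difference was -0.94 ± 0.15 (SE), or 1.93-fold (adjusted p = 0.00194).

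Type I collagen is made of 2 chains of Col1a1 and 1 of Col1a2, and both genes fell. Col1a1 (probe set 17255260) stood at 6.24, 6.36, 5.69 and 6.30 in YMT and at 5.65, 5.51, 5.42, 5.47 and 5.34 in OMT. The groups did not overlap, but YMT liver 3 came close to OMT liver 1. The Col1a1 difference was -0.67 ± 0.13, or 1.59-fold (adjusted p = 0.00532). Col1a2 (probe set 17455801) stood at 5.80, 5.81, 5.33 and 5.69 in YMT and at 5.25, 5.07, 5.25, 5.03 and 5.30 in OMT. Here too YMT liver 3 was the lowest of its group, just above the highest OMT liver. The Col1a2 difference was -0.48 ± 0.11, or 1.39-fold (adjusted p = 0.0115). A second, dimmer probe set of Col1a2 (17548532) was below the arrays' medians on every liver array, at 3.30 ± 0.21 (SD, n = 4) in YMT and 3.02 ± 0.12 (SD, n = 5) in OMT.

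The other fibrillar genes did not pass. The type V chains, minor components that set the diameter of type I fibres, were at -0.16 ± 0.08 for Col5a1 (adjusted p = 0.18), -0.18 ± 0.09 for Col5a2 (adjusted p = 0.172) and -0.16 ± 0.07 for Col5a3 (adjusted p = 0.147). Col2a1, the chain of cartilage collagen, was at -0.17 ± 0.13, Col24a1 at -0.08 ± 0.07, Col27a1 at -0.03 ± 0.12 and Col11a2 at 0.04 ± 0.10. Col11a1 did not reach the filter. Over the 10 fibrillar genes tested, 3 fell, 9 were below 0 and the median was -0.17.

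Col4a1 and Col4a2, whose products join 2 to 1 in the common type IV molecule, fell by similar amounts. Col4a1 (probe set 17507377) was at 6.50, 6.27, 6.31 and 6.35 in YMT and at 5.73, 5.91, 5.80, 5.70 and 5.99 in OMT. The groups were apart, and the spread within each was small, with an SD of 0.10 in YMT and 0.12 in OMT. The Col4a1 difference was -0.53 ± 0.08, or 1.45-fold (adjusted p = 0.00144). Col4a2 (probe set 17498962) was at 6.49, 6.00, 5.93 and 6.00 in YMT and at 5.28, 5.67, 5.68, 5.59 and 5.80 in OMT. Those groups were apart too, with YMT liver 1 highest and OMT liver 1 lowest. The Col4a2 difference was -0.50 ± 0.13, or 1.42-fold (adjusted p = 0.0239), and without OMT livers 1 and 2 it was -0.41 (adjusted p = 0.0756).

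The remaining type IV chains, which build the specialised membranes of the kidney and a few other organs, did not pass. Col4a3 was at 0.00 ± 0.07, Col4a5 at 0.02 ± 0.07 and Col4a6 at 0.03 ± 0.07, and Col4a4 did not reach the filter. Over the 5 type IV genes tested the median difference was 0.00. The type IV genes that fell were thus Col4a1 and Col4a2. A head-to-head layout is not particular to them: the promoter windows of Col4a5 and Col4a6 also lie close together on opposite strands of the X chromosome.

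Col14a1 showed the largest difference of the 36 collagen genes. It encodes a fibril-associated collagen found where type I fibres are packed. Its levels (probe set 17311551) were 7.19, 7.01, 6.81 and 6.93 in the YMT livers and 5.75, 5.83, 4.71, 5.27 and 5.30 in the OMT livers. The groups lay well apart, and the OMT livers were spread more widely (SD 0.45, n = 5) than the YMT livers (SD 0.16, n = 4). The difference was -1.61 ± 0.20 (adjusted p = 0.000378). The other 6 fibril-associated genes tested did not pass: Col20a1 was at 0.18 ± 0.12, Col16a1 at -0.06 ± 0.07, Col22a1 at -0.01 ± 0.08, and Col9a1, Col9a2 and Col9a3 between -0.02 and 0.03.

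Both multiplexin genes fell by small amounts. Col18a1, whose product yields the fragment endostatin, was at 9.03, 9.01, 8.88 and 8.86 in YMT and at 8.70, 8.71, 8.78, 8.57 and 8.77 in OMT (probe set 17242232). The groups did not overlap, and the difference of -0.24 ± 0.07 (adjusted p = 0.0399) was the last to pass. Col15a1 was at 5.27, 4.89, 5.21 and 5.26 in YMT and at 4.80, 4.92, 4.92, 4.75 and 4.86 in OMT (probe set 17413866). YMT liver 2 lay within the OMT range, so the groups overlapped; the difference was -0.31 ± 0.09 (adjusted p = 0.0352). When 1 liver was left out at a time, the other 6 genes passed in 9 of 9 fits. Col15a1 passed in 3 of 9 and was lost without OMT liver 1, 4 or 5 or YMT liver 1, 3 or 4 (adjusted p up to 0.0924). Col18a1 passed in 2 of 9 and passed only without OMT liver 3 or YMT liver 4 (adjusted p up to 0.106 in the others).

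Type VI collagen forms beaded filaments around cells from chains of Col6a1, Col6a2 and Col6a3. None of these passed in liver, at -0.01 ± 0.06 for Col6a1, -0.21 ± 0.08 for Col6a2 (adjusted p = 0.0869) and -0.33 ± 0.11 for Col6a3. Col6a3 came closest to passing among the collagen genes that did not, at an adjusted p of 0.0638. It passed after centring each array on its median (adjusted p = 0.0428). Its levels were 5.23, 4.77, 4.66 and 4.94 in YMT and 4.44, 4.50, 4.67, 4.58 and 4.67 in OMT, and YMT liver 3 lay within the OMT range. Col6a2 passed after quantile normalization within the tissue (adjusted p = 0.049). The transmembrane collagens Col13a1, Col17a1, Col23a1 and Col25a1 lay between -0.13 and 0.01, and the anchoring fibril gene Col7a1 was at 0.05 ± 0.09. Col6a6, a further type VI chain, was at 0.04 ± 0.07, and Col26a1 at -0.13 ± 0.08. Of the network-forming type VIII chains, Col8a1 was at -0.20 ± 0.11 and Col8a2 at -0.04 ± 0.13. The 8 members under the filter in liver were Col10a1, Col11a1, Col12a1, Col19a1, Col28a1, Col4a4, Col6a4 and Col6a5.

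**Figure D1:**
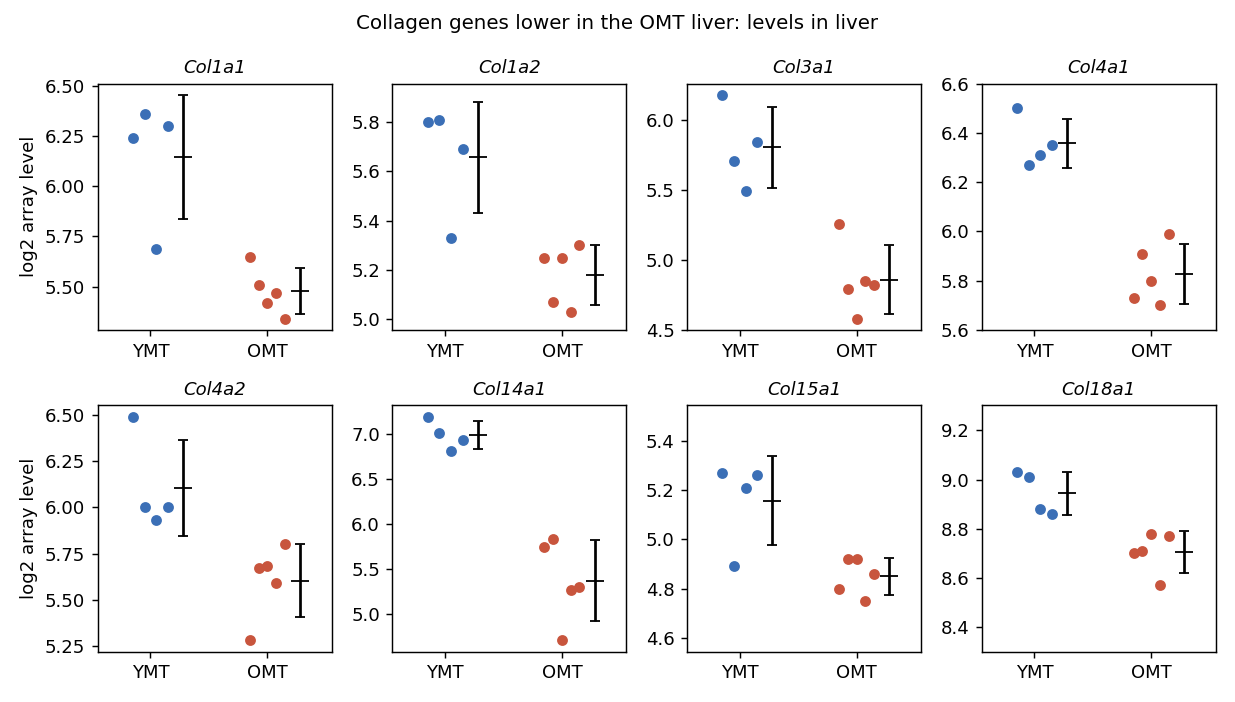
Log2 array levels in liver (vertical axis, cut to each gene's range) of the 8 collagen genes that fell, 1 point per liver in 4 YMT (blue) and 5 OMT (red) recipients; black bars give the mean and SD. OMT livers lie below all YMT livers for 7 genes, and for Col15a1 the groups overlap through 1 YMT liver at 4.89.

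The groups did not overlap for 7 of the 36 genes in liver, against 18.1% of all genes tested. The position of a liver within its group was not the same for all 8 genes. YMT liver 1 was the highest of its group for 6 of the 8, and YMT liver 3 was the lowest for 5. In the OMT group, OMT liver 4 was the lowest for 4 genes, and OMT liver 5 was the highest for 3.

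In the small intestine, 33 of the 44 members passed the filter, none through 1 group alone, and 0 fell and 0 rose by limma, against 3.1% lower, 1.04% higher and 4.14% in either direction among the 13238 genes tested. An unadjusted p under 0.05 was reached by 6 of the 33, against 22.8% of all genes. With no filter, 0 of the 44 fell and 0 rose, against 1.05% and 0.352% of all genes. Fitting all 18 arrays together gave 1 lower and 1 higher gene, Col3a1 (adjusted p = 0.0381) and Col20a1 (adjusted p = 0.0464), where 8.16% of all genes were lower and 2.76% higher. The median difference was 0.00 over the 33 genes and -0.02 over all genes. Of the 33, 17 lay below 0, against 54.8% of all genes.

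Col3a1 stood at 6.92, 6.04, 5.93 and 6.28 in the YMT intestines and at 5.73, 5.66, 5.80, 5.67 and 5.75 in the OMT intestines. The groups were apart, but YMT intestine 1 accounted for the top of the range, and the difference of -0.57 ± 0.17 did not pass (adjusted p = 0.0862). Col20a1, a fibril-associated collagen, was the closest to the threshold, at 5.19, 5.22, 4.98 and 4.93 in YMT and 5.53, 5.32, 5.48, 5.32 and 5.46 in OMT. Its groups were apart as well, with OMT the higher, and the difference was 0.34 ± 0.09 (adjusted p = 0.0553; 0.0366 after centring each array on its median). These were the 2 of 33 genes whose groups did not overlap, against 9.65% of all genes tested.

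Col14a1 was at 5.23, 4.80, 4.43 and 4.90 in the YMT intestines and at 4.43, 4.55, 4.40, 4.35 and 4.42 in the OMT intestines. These levels lie close to the arrays' medians of 4.39 to 4.51, and 3 YMT arrays but 1 OMT array exceeded the median. The difference was -0.41 ± 0.14 (adjusted p = 0.11) and passed without YMT intestine 3 (adjusted p = 0.0336). The type I genes were at -0.18 ± 0.16 for Col1a1 (adjusted p = 0.513) and -0.16 ± 0.16 for Col1a2 (adjusted p = 0.591).

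Col4a1 was at -0.26 ± 0.11 (adjusted p = 0.206) and Col4a2 at -0.29 ± 0.14 (adjusted p = 0.242) in the intestine. Col4a5 was at -0.17 ± 0.08, and the other 3 type IV genes did not reach the filter. Of the multiplexins, Col15a1 was at 0.00 ± 0.09 and Col18a1 at -0.20 ± 0.12. The type VI genes lay at -0.24 ± 0.10 for Col6a1, 0.05 ± 0.09 for Col6a2, -0.09 ± 0.11 for Col6a3 and -0.30 ± 0.17 for Col6a4. Col5a1 (-0.04 ± 0.08) and Col5a2 (0.00 ± 0.09) did not pass either, and Col8a2 was at 0.28 ± 0.12 (adjusted p = 0.198). The other 16 genes tested lay between -0.05 and 0.14, none past the threshold. The 11 members under the filter here were Col10a1, Col11a1, Col12a1, Col19a1, Col28a1, Col4a3, Col4a4, Col4a6, Col8a1, Col9a1 and Col9a3.

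YMT intestine 1 was the highest of its group for all 8 of the genes that fell in liver. YMT intestine 3 was the lowest for 6, among them Col4a2, where it tied with YMT intestine 4. Without YMT intestine 1, none of the 33 genes passed and Col3a1 was at -0.36 (adjusted p = 0.082). The summed level of the endothelial markers was also highest on YMT intestine 1, at 9.32 against 8.54 to 9.02 on the other YMT arrays, while that of the enterocyte markers was lowest there, at 14.95 against 15.17 to 15.42. The fibroblast sum, at 9.80, was close to the lowest of the others, 9.81. The part of these cell types in the collagen levels of that array was not tested.

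**Figure D2:**
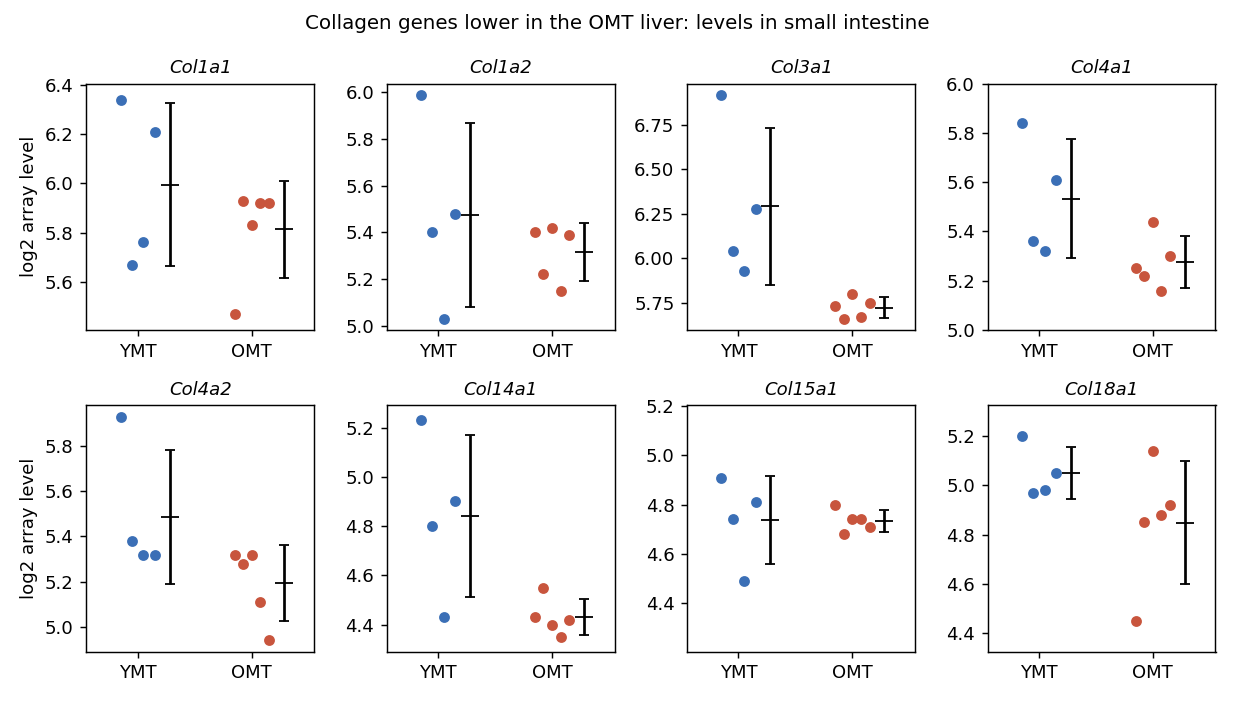
Log2 array levels in small intestine (vertical axis, cut to each gene's range) of the same 8 genes, 1 point per recipient, 4 YMT (blue) and 5 OMT (red), with mean and SD in black. None passed the threshold here, and YMT intestine 1, the leftmost blue point, is the highest of its group in all 8 panels.

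Whether a difference was unequal in liver and intestine was tested on all 18 arrays for the 31 collagen genes that passed the filter in both tissues. Col14a1 passed, at -1.61 in liver and -0.41 in intestine, with a liver difference lower by 1.20 ± 0.25 (adjusted p = 0.00497). In intestine its level lay near the arrays' medians, above them on 1 of 5 OMT arrays, and the part of that low level in the smaller intestinal difference was not tested. This is 1 of 31 genes, against 4.04% of the 11965 genes tested with a lower liver difference, and 0 were higher, against 7.91%. The other 30 did not pass, so for them a liver difference unlike the intestinal one was not shown. The liver difference was lower than the intestinal one by 0.49 ± 0.21 for Col1a1 (adjusted p = 0.138). It was lower by 0.30 ± 0.13 for Col15a1 (adjusted p = 0.123) and by 0.37 ± 0.24 for Col3a1 (adjusted p = 0.33). For Col4a1 it was lower by 0.27 ± 0.14 (adjusted p = 0.218). The liver difference of Col18a1 minus its intestinal one was -0.04 ± 0.15. Leaving out single arrays brought in a second gene in 2 cases, Col15a1 without YMT liver 2 and Col1a1 without YMT liver 3.

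**Figure D3:**
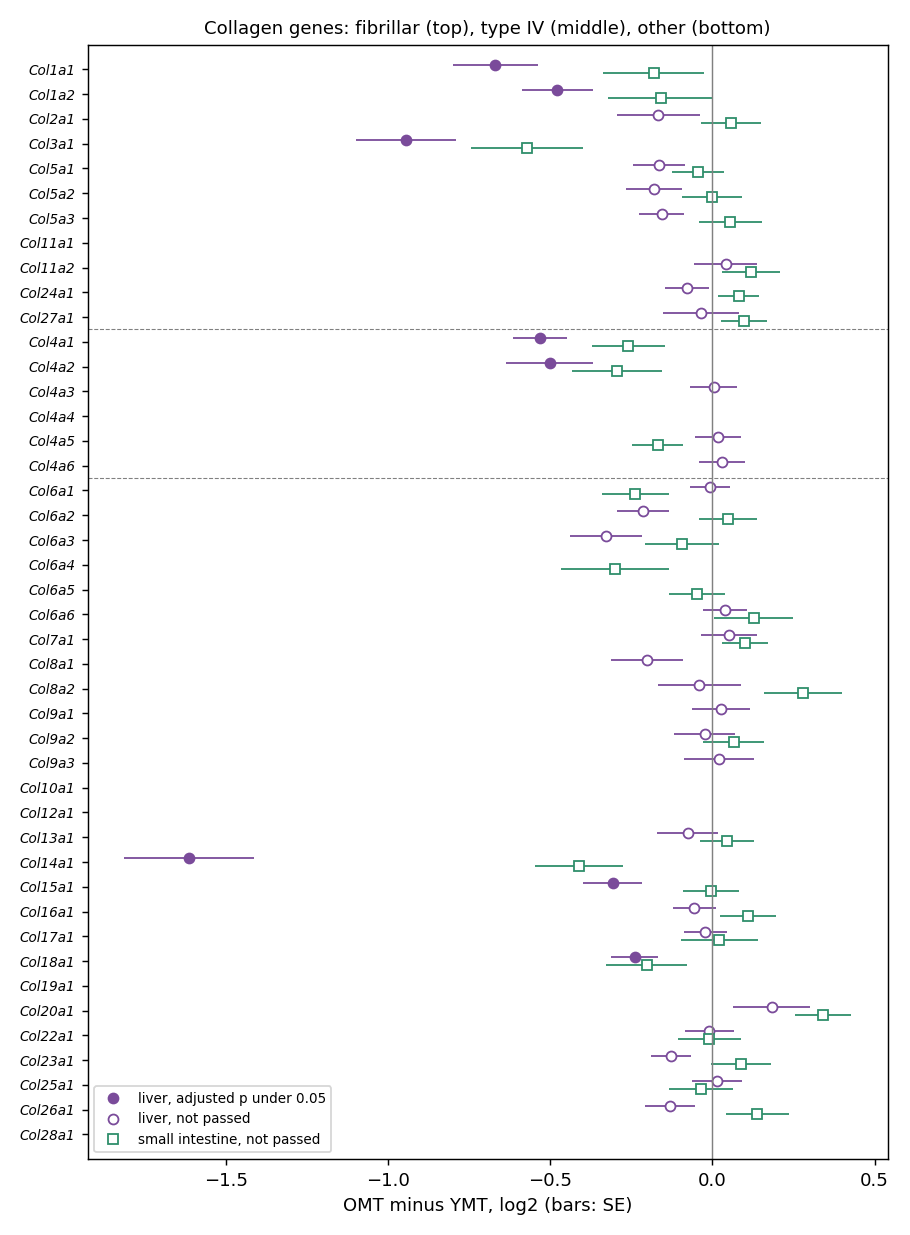
OMT minus YMT on the log2 scale (horizontal axis; bars give the SE) for each collagen gene tested in liver (purple circles, filled where the adjusted p is under 0.05) and small intestine (green squares); genes with no symbol in a tissue did not reach the filter. The filled symbols are the 8 liver falls, from -1.61 for Col14a1 to -0.24 for Col18a1, and no intestine symbol is filled.

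Genes that modify, export, trim and degrade collagen went both ways in the OMT liver. Over the 7 lists described here, 41 of 91 genes passed in liver, or 45.1%, against 19.2% of all genes tested. The lists were chosen with earlier results of these data known, and no test of a list was made. Beside each liver list count below, 8.78% of all genes tested fell and 10.4% rose. Of 15 measured genes of collagen folding and modification, 5 rose and 2 fell (median -0.08). Serpinh1, the collagen chaperone HSP47, fell by 0.46 ± 0.13 (adjusted p = 0.0278), and Crtap, a subunit of the prolyl 3-hydroxylase complex, fell by 0.69 ± 0.14 (adjusted p = 0.00672). The genes that rose were the lysyl hydroxylase Plod1 (0.50 ± 0.10), the prolyl 4-hydroxylase subunits P4ha1 (0.76 ± 0.18) and P4hb (0.28 ± 0.06), the ion channel Tmem38b (0.26 ± 0.07) and the galactosyltransferase Colgalt1 (0.34 ± 0.10). P4hb also serves as a general protein disulfide isomerase, so its level is not particular to collagen.

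Of 13 genes of export, trimming and cross-linking, 3 rose and 1 fell (median -0.10). Mia3, the receptor TANGO1 that loads procollagen into carriers, rose by 0.51 ± 0.10 (adjusted p = 0.00551), the coat protein gene Sec23a by 0.26 ± 0.08 and the procollagen C-proteinase gene Bmp1 by 0.46 ± 0.13. Pcolce2, an enhancer of that proteinase, fell by 0.41 ± 0.10. The cross-linking enzyme genes tested, Loxl1, Loxl3 and Loxl4, did not pass. Of 7 genes of breakdown and its inhibitors, the metalloproteinases Mmp14 (0.77 ± 0.11, adjusted p = 0.000683) and Mmp19 (0.48 ± 0.13) rose. The inhibitors Timp2 (-0.33 ± 0.09) and Timp3 (-0.33 ± 0.10) and the prolidase gene Pepd (-0.50 ± 0.10) fell. Mmp14, which cleaves type I collagen at the cell surface, was at 7.16 ± 0.13 (SD, n = 4) in YMT and 7.93 ± 0.19 (SD, n = 5) in OMT livers.

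Genes of proteins that sit on collagen or share its basement membrane fell where they passed. Of 17 fibril-binding genes 7 fell and 0 rose (median -0.17). They included the proteoglycan biglycan, Bgn (9.67 ± 0.09 to 8.78 ± 0.10, adjusted p = 3.81e-05), the collagen-binding glycoprotein Sparc (-0.97 ± 0.11) and Prelp (-0.56 ± 0.11). Ogn, counted among the 7, reached the filter through the 4 YMT livers alone, at 4.56 ± 0.20 (SD, n = 4), and exceeded the median on 0 of 5 OMT arrays, at 3.75 ± 0.22 (SD, n = 5), so no exact difference is given for it. Decorin, Dcn, was at 0.16 ± 0.08 and fibronectin, Fn1, at -0.13 ± 0.11, and neither passed. Of 15 basement membrane partners of type IV collagen 8 fell and 0 rose (median -0.35), with the laminin chains Lamc1 (-0.49 ± 0.08), Lama1 (-0.56 ± 0.09) and Lama3 (-0.36 ± 0.07) and perlecan, Hspg2 (-0.50 ± 0.09), at the smallest p. Of 5 collagen receptors 3 fell, the integrin chains Itga1 (-0.31 ± 0.07) and Itgb1 (-0.28 ± 0.08) and the kinase Ddr2 (-0.48 ± 0.11). Of 19 genes of TGFb and PDGF signalling 5 fell and 2 rose (median -0.15). Those with the smallest p were the TGFb-binding protein Ltbp4 (-0.87 ± 0.10), the receptor Tgfbr2 (-0.54 ± 0.10) and the ligand Tgfb1 (-0.43 ± 0.09), which fell, and the SMAD repressor Skil (0.72 ± 0.11), which rose.

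**Figure D4:**
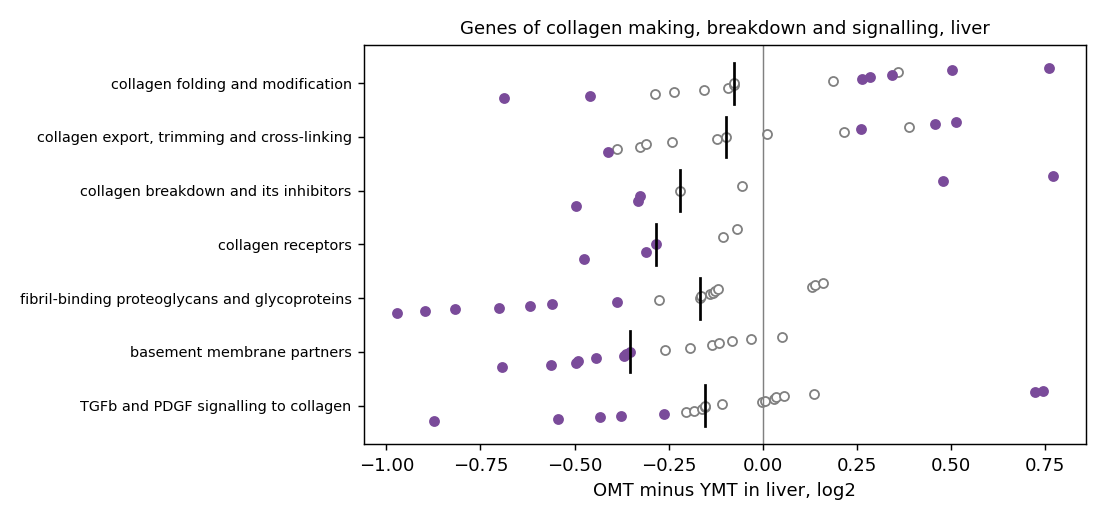
OMT minus YMT in liver on the log2 scale (horizontal axis) for the genes of 7 lists around collagen, 1 point per gene, filled where the adjusted p is under 0.05; the vertical bars are list medians. The 8 basement membrane partners and 7 fibril-binding genes that passed all lie left of 0, while folding, export and breakdown genes lie on both sides.

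In the small intestine 3 of the 81 genes tested in these lists passed, or 3.7%, near the 4.14% of all genes. P4hb rose by 0.45 ± 0.09 (adjusted p = 0.0229), Itgb1 fell by 0.49 ± 0.10 (adjusted p = 0.027) and the growth factor gene Pdgfc fell by 0.99 ± 0.20 (adjusted p = 0.0253). None of the 11 genes of export and cross-linking, 10 of breakdown, 14 fibril-binding genes and 10 basement membrane partners passed.

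Some markers of cells that make collagen in the liver also fell in OMT recipients. In bulk tissue fewer cells of a type and less RNA per cell cannot be told apart. Beside the marker counts that follow, 8.78% of all liver genes tested fell and 10.4% rose. Of 12 endothelial markers 8 fell and 0 rose, such as Cdh5 (-0.75 ± 0.10) and Eng (-0.68 ± 0.11). Their summed level, on the log2 scale, was 10.26 to 10.58 on OMT and 10.77 to 11.11 on YMT arrays. Of 13 hepatic stellate cell markers 3 fell, namely Reln (-0.77 ± 0.12), Ecm1 (-0.41 ± 0.11) and Pdgfrb (-0.38 ± 0.10). Hhip (0.47 ± 0.16, adjusted p = 0.0595) and Rgs5 (0.23 ± 0.13) lay above 0 and did not pass. Lrat, which stores vitamin A in stellate cells, was at -0.24 ± 0.17 (adjusted p = 0.365). The stellate sum was 9.86 to 10.04 in OMT and 10.18 to 10.26 in YMT, and no marker of either list was below the array median on all arrays. Sums add unlogged levels, so the brightest markers weigh most. In the stellate list these were Ecm1 and Reln, already named, so that sum is not separate from their falls. The brightest endothelial markers, Eng, Clec4g, Kdr and Ptprb, were all among the 8 that fell, so the same holds for the endothelial sum.

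Of 8 smooth muscle markers tested 3 fell, Tagln (-0.64 ± 0.14), Smtn (-0.43 ± 0.11) and Acta2 (-0.55 ± 0.16), with sums over the 10 markers of 7.99 to 8.19 in OMT and 8.24 to 8.61 in YMT. Synpo2 was below the median on all liver arrays. The brightest smooth muscle markers were Acta2 and Tagln, so that sum is not separate from their falls. Of 7 fibroblast markers tested, Dpt fell, at 4.55 ± 0.21 (SD, n = 4) in YMT and 4.02 ± 0.16 (SD, n = 5) in OMT, where 1 of 5 arrays exceeded its median, and Pdgfra (0.74 ± 0.22) rose, and the sums over 10 markers overlapped, at 7.84 to 8.11 in OMT and 7.89 to 8.07 in YMT. Mfap5 was below the median on all liver arrays. Hepatocyte markers held no call among 8, with sums of 15.46 to 15.53 in OMT and 15.46 to 15.50 in YMT. The brightest of them, Alb, was at 13.24 in both groups, near the highest value on the arrays, 13.50. Whether this left the hepatocyte sum little room to move was not tested. Of 5 enterocyte markers tested in liver, Apoa4, which hepatocytes express too, rose (2.17 ± 0.23), and the sums over 8 markers were 11.83 to 12.80 in OMT and 11.37 to 11.55 in YMT, with Lct and Sis below the median on all liver arrays. Of 9 macrophage markers Marco rose and Clec4f and Cd5l fell, and the sums overlapped. OMT livers 1 and 2 stood apart from the other OMT livers in the macrophage sum (10.09 and 10.04 against 9.73 to 9.78). The fibroblast sum split the same livers (7.84 and 7.85 against 8.08 to 8.11). The part of these cell types in the collagen differences was not tested.

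**Figure D5:**
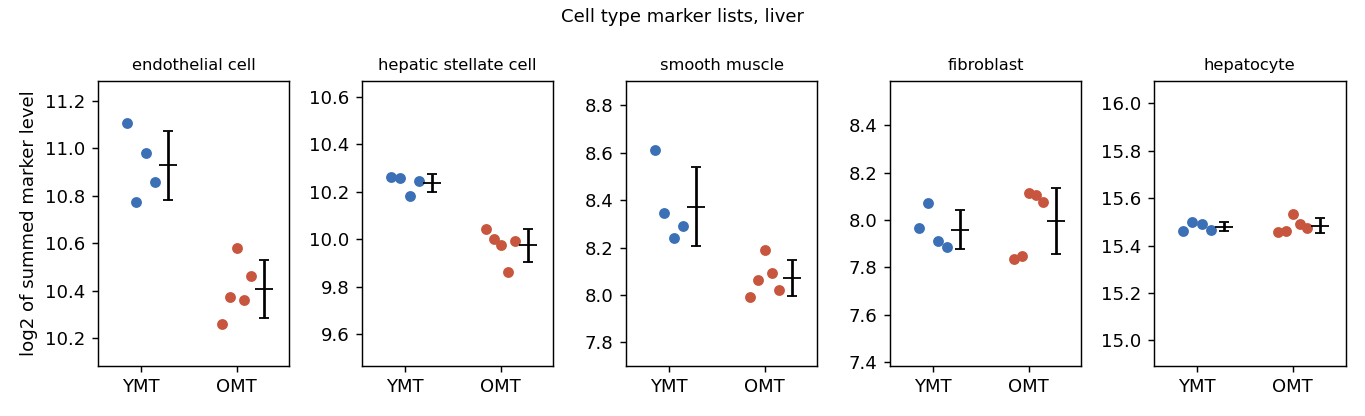
Log2 of the summed levels of 5 cell type marker lists in liver (vertical axis, the same span in each panel), 1 point per liver, 4 YMT (blue) and 5 OMT (red), with mean and SD in black. The groups are apart for endothelial, stellate and smooth muscle markers and overlap for fibroblast and hepatocyte markers. Where the groups are apart, the brightest markers are among those that fell, so the sums are not separate from those falls.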

How the data were processed

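Gene expression was measured on 1 Affymetrix whole-transcript array per sample, from 250 ng of total RNA per the labels' protocols. The submitters' processing notes name Affymetrix Expression Console and RMA, by which the authors obtained the log2 values they deposited; no version was found in the labels. RMA subtracts background, equalises the arrays' distributions and combines probes into probe sets. Values run from 0.30 to 13.50, which is why base 2 was assumed, and no label says whether the tissues were normalized jointly; comparisons of level therefore stay within 1 tissue and 1 gene. The number of arrays limits the precision.

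Of 41345 probe sets, 23521 have 1 symbol, 1814 several and 16010 none. Symbols of genes other than collagens were updated by gene identifier through a RefSeq table (GRCm38.p6), which held 23328 of the 23521. No 2 arrays held identical values. OMT and YMT, taken from the sample titles, were compared per tissue with limma 3.58.1 in R 4.3.3 (lmFit and eBayes), two-sided; the steps were tested on simulated data. The p-values measure the spread between biological replicates, as the titles call them.

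The text names every collagen gene past the threshold, 13 collagen genes whatever their p, those nearest the threshold, and up to 4 genes of smallest p per list. Other genes named (Dcn, Fn1, Lrat, the remaining genes past the threshold in 3 lists, further members of marker lists, and other collagen genes that did not pass) were chosen after their values were seen. Members and lists were chosen with earlier results of these data known. Alternatives were other filters, variance settings, scalings, probe set choices and fits, each array left out, OMT replicates 1 and 2 left out, and the replicate number as a block. Figures were drawn with matplotlib 3.10.9.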

Additional observations from a re-analysis of the deposited data

Results flagged for a closer look

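Among 54 groups of arrays checked for a single array far from the rest, 8 were found, where chance alone gives about 1 in 20. The checks share the same arrays and are not independent, so the 8 are not tested against that share. Each gap was judged against the range of its own group, so a small gap could be flagged. In liver they were Col15a1 on YMT replicate 2 (4.89, next 5.21), Col4a2 on YMT replicate 1 (6.49, next 6.00) and Col5a1 on YMT replicate 4 (5.62, next 5.87). In small intestine they were Col1a1 on OMT replicate 1 (5.47, next 5.83), Col4a2 on YMT replicate 1 (5.93, next 5.38) and Col6a2 on OMT replicate 2 (5.85, next 5.59). OMT replicate 5 of the intestine was far from the rest for Col5a1 (5.29, next 5.20) and Col5a2 (4.55, next 4.91). Col14a1 had a lower OMT minus YMT difference in liver than in intestine, by -1.20 (limma, adjusted p = 0.00497); its intestinal level exceeded the array median on 1 of 5 OMT arrays, and the part of that low level was not tested.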

How the results depend on the processing

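In liver the count of lower collagen genes was 8. It was 5 with the stricter filter at the 75th percentile (9 members tested), 5 without OMT replicates 1 and 2 and 5 with the replicate block, which kept Col14a1, Col1a1, Col1a2, Col3a1 and Col4a1. It lay between 6 and 9 under the other settings and between 6 and 8 with 1 array left out, and none of these settings gave a higher gene. The median difference in liver was -0.24 with the stricter filter and -0.11 to -0.06 with 1 array left out. Same-numbered OMT and YMT livers had correlations of deviations from -0.18 to 0.09, and intestines from -0.06 to 0.32. With so few pairs, these do not settle whether replicate numbers pair the samples. With the block the liver held 719 lower and 740 higher genes, against 1175 and 1388.

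In intestine the counts of 0 lower and 0 higher became 1 and 1 with all 18 arrays, 1 higher after median centring, and 0 to 1 lower with 1 array left out; the block gave 0 and 0. The median was 0.0665 with the stricter filter, 0.0765 after median centring and -0.03 to 0.03 with 1 array left out. Centring gave 274 higher and 367 lower genes in all, against 138 and 410, so the intestinal split depends on the scaling. The count of genes unequal between tissues, 1, was 2 after centring and 1 to 2 with 1 array left out; Col14a1 passed in all 18 of these. Some probe sets were dim and lay near the arrays' medians, and whether this limited the size of the differences was not tested.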
